A study of Mus musculus with 2 samples.

Results

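Bst2, Oasl1 and Parp12 are mouse genes known to be induced by interferon whose products act against viruses in different ways. They were compared here between clones D351 and D16 of mouse mesoangioblasts, vessel-associated progenitor cells that can enter several mesodermal lineages. The genes were chosen by name, as interferon-induced genes with different effector roles, after ratios between these same arrays were known, and all 3 were at least 2-fold apart. Their signals are therefore given as a description and carry no test. They were found as the probe sets whose platform annotation gives exactly 1 gene symbol, that symbol being one of the 3. This gave 5 probe sets for the 3 genes, out of 10581 probe sets with 1 symbol that stood for 7542 genes. Bst2 and Parp12 had 2 probe sets each and Oasl1 had 1.

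Clone D351 and clone D16 were each hybridised to 1 Affymetrix MG-U74B array as total RNA, so neither clone was replicated. Per the labels, both clones came from C57BL6 dorsal aorta at embryonic day 9.5, which grew for 5 days as explants before single cells were cloned by limiting dilution. Both were started over embryonic fibroblasts that mitomycin C had arrested, in RPMI with 20% fetal calf serum, and then expanded on gelatin. Each group is thus 1 clone. The labels name no interferon, virus or other treatment in either clone, so the comparison is between untreated cultures as far as they are labelled. Signals are the deposited intensities on a linear scale, which summed to 646285 on the D351 array and 653854 on the D16 array. Values under 16.8, the median of both arrays pooled, were raised to that floor before a ratio of D351 over D16 was taken, and a gene was called measured when at least 1 array reached the floor. Where 1 of the arrays was under the floor the ratio is a bound, and where both were there is none. With 1 array per clone there is no replicate spread, and no p-value or standard error was computed.

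Interferons are secreted when a cell senses viral nucleic acid. They bind receptors that activate JAK kinases, and the transcription factors these switch on bind interferon-stimulated response elements in the promoters of many antiviral genes. Many of these genes keep a low level of transcription without added interferon. The products act at separate steps of infection, such as the release of new particles, the translation of viral RNA or the production of interferon itself.

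The 3 genes did not move together. Bst2 and Parp12 were higher in D351, both by 2.50-fold, and Oasl1 was lower in D351 by 4.00-fold. Of all 4922 measured genes, 18.1% were at least 2-fold apart between the clones, 9.49% with the higher signal in D351 and 8.57% with the lower signal in D351. The choice of the genes used this same contrast, so nothing is read from all 3 lying past 2-fold.

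Bst2 encodes tetherin, a membrane protein that holds budding enveloped virus particles at the cell surface. Its plain probe set read 219.6 in D351 and 87.9 in D16, a log2 ratio of 1.32. Both signals lay well clear of the floor, at 13.1 times it in D351 and 5.23 times it in D16. The second Bst2 probe set, of the _i type designed under relaxed rules, read 5.2 in D351 and 12.0 in D16. Both of its values were under the floor and were given no ratio, so the Bst2 ratio rests on 1 probe set.

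Parp12 encodes a mono-ADP-ribosyltransferase with RNA-binding zinc fingers that restrains the replication of several RNA viruses. Its plain probe set read 110.1 in D351 and 44.0 in D16, a log2 ratio of 1.32. These signals stood at 6.55 times the floor in D351 and 2.62 times it in D16. An _r probe set, another relaxed design, read 17.0 in D351 and 16.2 in D16, on either side of the floor, with a log2 ratio of at least 0.02. The second probe set, close to the floor in both clones, did not show the ratio of the first, and the median of both ratios was 0.67, under 2-fold.

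Oasl1 encodes a protein of the oligoadenylate synthetase family that lacks synthetase activity. In mouse it is known to hold back translation of the mRNA for Irf7, a transcription factor that drives interferon production, and so to act as a brake on that production. Its probe set read 24.5 in D351 and 98.1 in D16, a log2 ratio of -2.00. The D351 signal stood at 1.46 times the floor, against 5.84 times it in D16. The size of this ratio therefore depends on how dim values are treated. Its direction was the same in every setting tried, several of which cannot change it.

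**Figure D1:**
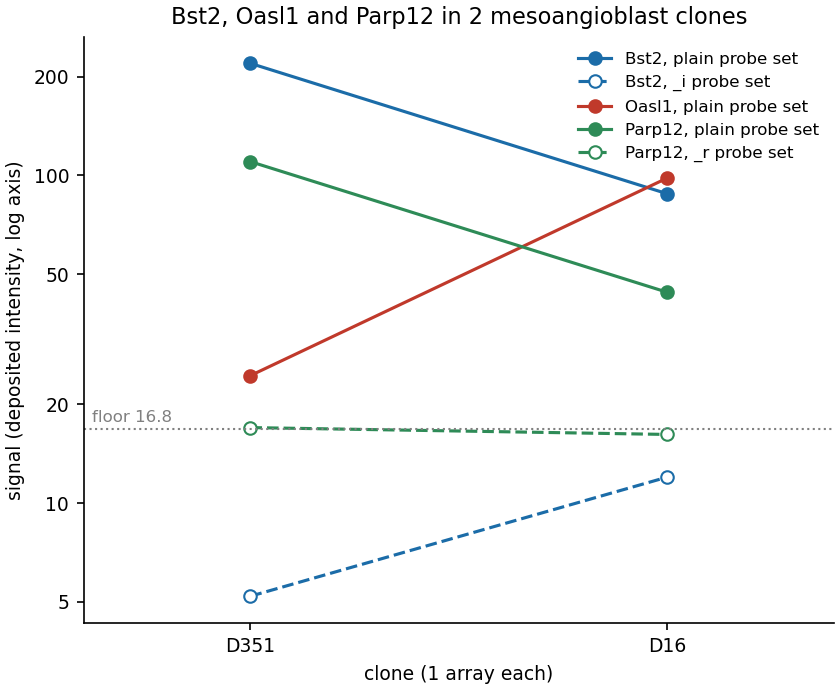
Signals of the 5 probe sets of Bst2, Oasl1 and Parp12 on the D351 array and the D16 array (deposited intensity on a log axis, 1 array per clone, so no error bars). Filled points are plain probe sets and open points the _i and _r designs, and the dotted line is the floor of 16.8. The filled points of Bst2 and Parp12 are higher in D351 (219.6 and 110.1, against 87.9 and 44.0 in D16) and that of Oasl1 is lower (24.5 in D351, against 98.1 in D16).

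The log2 ratios of Bst2 and Parp12 differed by 0.0023, and Oasl1 differed from them by 3.32. Since the genes were chosen with their ratios known, these gaps are descriptions and were set against no spread. For the precision of single ratios, the ratios of the 2 brightest probe sets of the same gene were compared in the 1113 genes that had 2 measured ones, and their difference had an SD of 0.71. This SD covers probe design on the same pair of arrays and not the spread between cultures. It includes ratios that are bounds, which the floor draws towards 0. A ratio near that of Bst2 was not rare, since 96 measured genes (1.95%) had a log2 ratio within 0.1 of it. For Oasl1 there were 31 such genes (0.63%). In the direction of each gene, 285 of the 4922 measured genes had a ratio at least as high as that of Bst2, and 67 had one at least as low as that of Oasl1.

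The promoters are shown because Bst2 and Parp12 shared a ratio on their plain probe sets while Oasl1 did not. Interferon also acts through known letters in such sequences. They come from RefSeq (GRCm38.p6), 1 per gene, and run 5′ to 3′ on the gene's own strand from 250 bases before the annotated start to 50 bases after it. All 3 genes matched by symbol. Bst2 lies at chr8:71537423-71537722 on the minus strand, Oasl1 at chr5:114922990-114923289 on the plus strand and Parp12 at chr6:39118300-39118599 on the minus strand. Capitals mark matches on either strand to GAAANNGAA, the core letters of the interferon-stimulated response element.
Bst2: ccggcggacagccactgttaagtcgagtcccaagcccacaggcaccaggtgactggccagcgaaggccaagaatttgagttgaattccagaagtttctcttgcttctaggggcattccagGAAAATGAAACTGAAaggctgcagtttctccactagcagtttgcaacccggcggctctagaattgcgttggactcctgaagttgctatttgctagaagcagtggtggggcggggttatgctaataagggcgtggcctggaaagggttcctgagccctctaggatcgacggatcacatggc
Oasl1: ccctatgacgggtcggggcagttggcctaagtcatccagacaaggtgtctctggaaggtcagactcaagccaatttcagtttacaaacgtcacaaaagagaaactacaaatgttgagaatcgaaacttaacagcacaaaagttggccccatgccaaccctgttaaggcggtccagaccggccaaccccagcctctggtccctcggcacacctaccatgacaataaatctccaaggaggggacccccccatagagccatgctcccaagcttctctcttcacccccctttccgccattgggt
Parp12: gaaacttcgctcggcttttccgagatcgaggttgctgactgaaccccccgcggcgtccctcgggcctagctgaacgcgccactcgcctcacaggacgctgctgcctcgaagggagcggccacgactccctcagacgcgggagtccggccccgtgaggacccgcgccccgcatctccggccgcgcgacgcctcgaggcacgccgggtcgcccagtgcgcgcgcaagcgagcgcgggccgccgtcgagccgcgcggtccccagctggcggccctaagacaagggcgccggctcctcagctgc
The Bst2 promoter held 2 overlapping matches, GAAAATGAA and GAAACTGAA, which together span positions -130 to -116 from the start. A match to TTCNNNGAA, the letters of the gamma-activated site, overlapped them (TTCCAGGAA, from -136 to -128). That motif reads the same on both strands. The promoters of Oasl1 and Parp12 held 0 matches to either motif in this window, which says nothing about factors bound there or elsewhere. Of all 32851 promoters in the table, 8.56% held the first motif and 8.30% the second. Base composition differed too, with 73.7% G and C in the Parp12 promoter, 53.7% in that of Bst2 and 53.0% in that of Oasl1. Parp12 thus differed from Bst2 in both features and shared the lack of a match with Oasl1. Any link between these features and the ratios was not tested.

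The 3 genes lie on different chromosomes. On chromosome 8, which holds Bst2, the 277 measured genes had a median log2 ratio of -0.05. On chromosome 5, which holds Oasl1, 334 measured genes had a median of -0.12. On chromosome 6, which holds Parp12, 239 measured genes had a median of 0.18, and 56.1% of them were above 0, against 48.8% of all measured genes. Gene order was taken from the same RefSeq assembly, and probe sets were not placed on the genome.

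Oasl1 stood next to its closest relative on the array with a ratio of the other sign. Oasl2, its neighbour with 1 annotated gene between them, encodes an oligoadenylate synthetase-like protein that, unlike Oasl1, keeps synthetase activity in mouse. It read 74.8 in D351 and 57.3 in D16, a log2 ratio of 0.38. The other nearest measured genes, Git2 (0.91, an _f probe set), Mlec (0.35) and Pop5 (0.12), also had log2 ratios above 0, so Oasl1 alone of these 5 genes was below 0.

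The nearest measured genes around Bst2 were within 2-fold. Mvb12a, a subunit of the ESCRT-I sorting complex that directly follows Bst2 in gene order, read 71.2 in D351 and 94.5 in D16. Plvap (log2 -0.16, an _r probe set), Gtpbp3 (0.40) and the fatty acid transporter gene Slc27a1 (-0.64) lay on both sides of 0. Around Parp12, the histone demethylase gene Kdm7a, with 1 annotated gene between them, read 124.4 in D351 and 58.8 in D16, a log2 ratio of 1.08. The kinase gene Hipk2 had 0.74, Slc37a3 0.30 and Klrg2 -0.01. Parp12 was thus the gene of the 3 whose chromosome median and nearest measured gene on each side had ratios in its own direction.

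**Figure D2:**
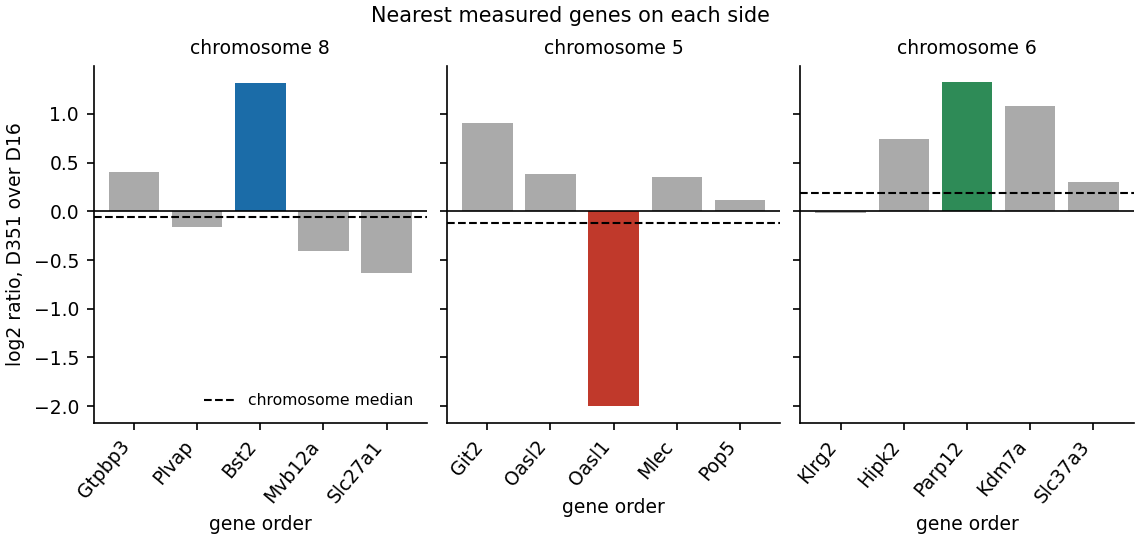
Log2 ratio of D351 over D16 (vertical axis) for Bst2, Oasl1 and Parp12 (coloured bars) and the 2 nearest measured genes on each side in gene order (grey bars), with the median of all measured genes of that chromosome as a dashed line. Oasl1 (-2.00) lies opposite to all 4 of its neighbours, and Parp12 (1.32) lies beside Kdm7a (1.08) and Hipk2 (0.74).

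The other interferon-related genes on the array were followed in 11 lists by role, chosen with earlier results of these data known. They named 296 genes, of which 98 were on the array with 1 symbol and 70 were measured, 15 of these with a ratio that is a bound. The lists went by role and included genes outside the antiviral group, such as Parp3. Their summary is therefore not one of interferon-induced genes alone, which was not made. Genes of the lists were spread around 0. Apart from Bst2, Oasl1 and Parp12, the 67 measured genes had a median log2 ratio of 0, and 33 of them (49.3%) were above 0. Over all measured genes the median was -0.01 and 48.8% were above 0. Past 2-fold among the 67 genes lay 6 that were higher in D351 (8.96%) and 4 that were lower (5.97%), shares near the 9.49% and 8.57% of all measured genes. With the floor at the 25th percentile, 89 list genes were measured and this order of the counts turned. Past 2-fold, 10 were then higher and 12 lower, the 3 genes included, against 8 and 5 of 70 with the floor used here. Of all measured probe sets, 23.1% were past 2-fold at that lower floor, against 17.2% at the floor used here. The genes that passed 2-fold by the least were Ikbkg on the higher side (2.46-fold, with 57.7 in D351 and 23.5 in D16) and Oard1 on the lower side (2.02-fold, with 31.0 in D351 and 62.7 in D16). Rnf135 missed it by the least on the higher side (1.99-fold, with 50.5 in D351 and 25.4 in D16). On the lower side, bounds left aside, this was Rnaseh2b (1.84-fold, with 147.9 in D351 and 272.6 in D16), whose other probe set had a log2 ratio of 0.43.

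**Figure D3:**
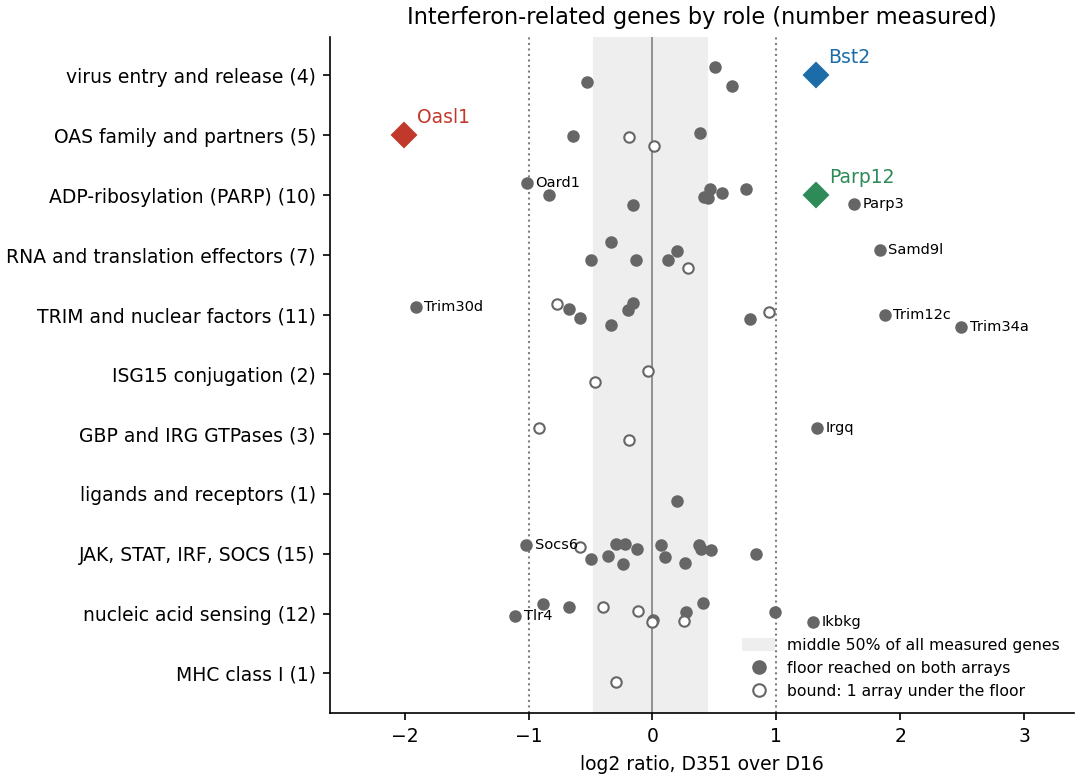
Log2 ratio of D351 over D16 for measured genes of 11 interferon-related lists (rows, with the number measured; Parp14 stands in 2 lists). Diamonds are Bst2, Oasl1 and Parp12, open points are bounds with 1 array under the floor, the grey band is the middle 50% of all measured genes (-0.47 to 0.44) and dotted lines mark 2-fold. Points of most lists lie on both sides of 0, and genes past 2-fold occur in both directions.

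Little of the interferon input could be read. Of the ligands and receptors 2 of 26 were on the array. Ifngr2, a chain of the receptor for interferon gamma, read 656.5 in D351 and 573.3 in D16 on an _r probe set (log2 0.20), and the lambda receptor gene Ifnlr1 was under the floor on both arrays. Genes of the interferons themselves and of the alpha and beta receptor were not analysed here. Downstream, the kinase gene Tyk2 read 39.8 in D351 and 30.6 in D16 (log2 0.38). Stat2, whose product is a subunit of the complex that binds response elements, read 100.2 in D351 and 72.2 in D16 (log2 0.47), with a second, _r probe set under the floor on both arrays. Both were higher in D351 by less than 2-fold.

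The list of kinases, STAT and IRF factors and their inhibitors had 15 measured genes, with a median log2 ratio of -0.12. None of them was at least 2-fold higher in D351, and 1 was at least 2-fold lower. That gene was Socs6, of the suppressor of cytokine signalling family, with 165.1 in D351 and 335.2 in D16 (log2 -1.02). The 2 other Socs6 probe sets both had a log2 ratio of -0.28, so this size was seen on 1 of 3. Socs3, an inhibitor of JAK kinases, did not reach the floor on either array (7.1 in D351 and 5.7 in D16). Pias1, an inhibitor of cytokine signalling, read 42.2 in D351 and 23.7 in D16 (log2 0.83).

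Sensing genes also went both ways, with 12 measured and a median log2 ratio of 0.0017. Ddx58, which encodes the RNA sensor RIG-I and is itself interferon-induced, was equal in the clones, with 208.5 in D351 and 208.0 in D16. Ikbkg, the regulatory subunit of the IKK kinase complex, was 2.46-fold higher in D351, and its other probe set had a log2 ratio of at least 1.60. Tlr4, the receptor for bacterial lipopolysaccharide, was 2.16-fold lower in D351 (35.4 in D351 and 76.4 in D16). Rnf135, a ubiquitin ligase that activates RIG-I, had a log2 ratio of 0.99.

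Of the relatives of Oasl1, Oasl2 alone reached the floor on both arrays, and it did not share the ratio of Oasl1. In the list of oligoadenylate synthetases and their partners, 5 genes were measured with a median log2 ratio of -0.19, Oasl1 included. Oasl1 was the 1 member past 2-fold, lower in D351, and 0 were at least 2-fold higher. Oas2 read 14.2 in D351 and 19.2 in D16, which gives a log2 ratio of at most -0.19. Oas1c, at 16.9 in D351 and 14.8 in D16, lay at the floor, and Oas1f was under it on both arrays. Pde12, an enzyme that degrades the oligoadenylates these synthetases make, read 29.2 in D351 and 45.5 in D16 (log2 -0.64).

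Most relatives of Parp12 stayed under 2-fold. Of the 10 measured genes of ADP-ribosylation, 7 with Parp12 included had a log2 ratio above 0 and the median was 0.46. Parp12 and Parp3 were past 2-fold towards D351, and Oard1, a hydrolase that removes ADP-ribose, was 2.02-fold lower. Parp3, a nuclear enzyme of DNA break repair and not of the antiviral group, read 245.0 in D351 and 79.2 in D16 (log2 1.63). Parp9 and its ubiquitin ligase partner Dtx3l, an interferon-induced pair, had log2 ratios of 0.76 and 0.56. Parp9 read 109.6 in D351 and 64.8 in D16, and Dtx3l read 85.5 in D351 and 58.0 in D16. Parp14, another interferon-induced member, was lower in D351 by less than 2-fold (30.2 in D351 and 33.6 in D16). Zc3hav1, the zinc-finger antiviral protein, which belongs to the same family, read 125.1 in D351 and 91.6 in D16 (log2 0.45). Its other probe set read 11.8 in D351 and 37.5 in D16, a log2 ratio of at most -1.16, so the probe sets of Zc3hav1 disagreed.

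Around Bst2, the list of genes that restrict virus entry or release had 4 measured members with a median log2 ratio of 0.57, Bst2 included. Bst2 was the member past 2-fold, and 0 were at least 2-fold lower. Rsad2, which encodes viperin, read 38.3 in D351 and 24.6 in D16 (log2 0.64). Ncoa7 read 38.2 in D351 and 26.9 in D16 (log2 0.51). Ly6e, a surface protein that impairs coronavirus entry, read 38.3 in D351 and 55.4 in D16 (log2 -0.53).

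Other effectors included genes with larger ratios than those of Bst2 and Parp12. Samd9l, a restriction factor of poxviruses, was 3.56-fold higher in D351 (205.3 in D351 and 57.6 in D16) and was the member past 2-fold of 7 measured RNA and translation effectors, whose median was 0.12. Eif2ak2, the kinase PKR that halts translation on sensing double-stranded RNA, read 59.5 in D351 and 83.9 in D16 (log2 -0.50). The RNA-editing enzyme gene Adar had 0.20 and Helz2 0.12. Ifit1bl1, Epsti1, Rtp4, Slfn5 and Shfl were under the floor on both arrays.

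Among 11 measured genes of the list of TRIM proteins and nuclear factors, 2 were past 2-fold towards D351, 1 was past it in the other direction, and the median was -0.20. Trim34a was 5.62-fold higher in D351 on an _f probe set, whose probes related transcripts can share, and its _i probe set had a log2 ratio of at least 0.29. Trim12c, of the mouse group related to human TRIM5, was 3.67-fold higher. Trim30d was 3.76-fold lower in D351 and had a log2 ratio of -2.15 on its other probe set. These Trim genes are close copies of one another and of further genes, so their signals may share transcripts. Pml, which organises nuclear bodies, read 92.9 in D351 and 53.8 in D16 (log2 0.79). Sp100, Sp110 and Samhd1 were under the floor on both arrays.

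Few genes were left for the remaining roles. Of 3 measured genes of the GBP and IRG families Irgq was 2.51-fold higher in D351, and its other probe sets were under the floor on both arrays. Irgq stands in the list by family, and whether interferon induces it was not examined. Gbp8 and Gbp9 had D351 signals under the floor, with log2 ratios of at most -0.19 and at most -0.92. Herc6, the main ligase for ISG15 in mouse, read 13.7 in D351 and 17.2 in D16, close to the floor. Tap1, the peptide transporter of class I antigen presentation, reached the floor on neither array (11.3 in D351 and 7.0 in D16), and Erap1 had a log2 ratio of at most -0.29.

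By ratio alone, the interferon-list genes most like Bst2 were Parp12, Irgq and Ikbkg, within 0.025 on the log2 scale. The genes most like Parp12 were Bst2, Irgq and Ikbkg. Nearest to Oasl1 came Trim30d, 0.09 away, and then Tlr4 and Socs6, 0.89 and 0.98 away. Likeness here is the distance between log2 ratios, over 2 arrays and among 54 other list genes at the floor on both arrays, and it carries no more than that 1 number.

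Markers of other cell types were read beside these genes, since in a bulk RNA sample fewer cells of a type and less RNA per cell cannot be told apart. Bst2 also marks plasmacytoid dendritic cells in mouse. Of 6 plasmacytoid dendritic and B cell markers on the array, Siglech, Ccr9, Lair1 and Ms4a1 were under the floor in both clones, at up to 2.2 in D351 and up to 5.5 in D16. Ebf1 was measured in both (44.8 in D351 and 51.8 in D16). The list summed to 255.9 in D351 and 607.7 in D16, mostly from Tcf4, which mesenchymal cells also express. Of 4 blood cell markers on the array Cd163 and Cd3e were under the floor in both clones, and the 2 others were measured. These were Cd44 (1092.5 in D351 and 1164.5 in D16), which mesenchymal cells also express, and Runx1 (61.1 in D351 and 45.4 in D16). Embryonic fibroblast markers, the type of the feeder layer, were on the array for 6 genes, and 5 of them were past 2-fold towards D351. Over all measured genes, the share past 2-fold in that direction was 9.49%. For Col5a2 (60.1 in D351 and 12.4 in D16) and Aspn (177.4 in D351 and 3.6 in D16) the ratio is a bound. The 6 genes summed to 2454.2 in D351 and 997.2 in D16. Among them were Sfrp1 (900.3 in D351 and 48.2 in D16) and Prrx1 (546.8 in D351 and 149.3 in D16). Tcf4 was the member that was lower (205.6 in D351 and 544.8 in D16). Whether these signals came from feeder cells or from the clones themselves was not tested. Any part of feeder cells in the Bst2 and Parp12 ratios was not tested either. Of the mural and endothelial markers, Myocd, Actg2, Rgs5, Esam and Robo4 were under the floor in both clones. Myh11 was measured in both (35.6 in D351 and 36.8 in D16), while Mylk was 7.04-fold higher in D351 and Cspg4 3.19-fold lower. Among the endothelial genes Flt1 was at least 2.65-fold higher and Nrp2 2.93-fold lower in D351. Epithelial markers Tjp3 and Ocln were under the floor in both clones.

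**Figure D4:**
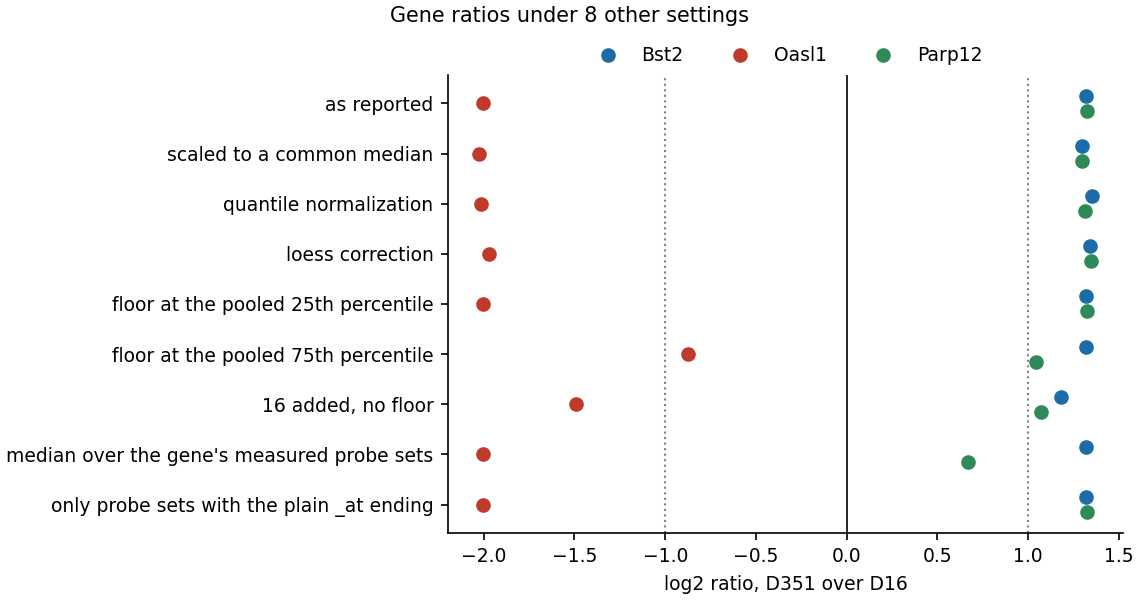
Log2 ratio of D351 over D16 for Bst2, Oasl1 and Parp12 as reported (top row) and under 8 other settings of scaling, floor and probe set choice. Dotted lines mark 2-fold. Bst2 lies between 1.18 and 1.35 and Parp12 between 0.67 and 1.34, while Oasl1 lies between -2.03 and -0.87, on the other side of 0 in each row.

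Under these 8 settings the signs of the 3 genes held, but a floor or an added constant cannot reverse the order of 2 values. The plain-only setting used the same probe sets again, so the constant signs are no measure of precision. Bst2 ranged from 1.18 to 1.35 and stayed past 2-fold in all 8, each read from its plain probe set. Its _i probe set entered none of them. Both _i values (5.2 in D351 and 12.0 in D16) reached the 25th percentile floor of 4.6, with a log2 ratio of -1.21. Parp12 ranged from 0.67 to 1.34 and fell under 2-fold when its dim probe set was averaged in. Oasl1 ranged from -2.03 to -0.87, and fell under 2-fold with the floor at the pooled 75th percentile, where its D351 signal was a bound. Bst2 and Parp12 were on the same side of 0, opposite to Oasl1, in every setting tried, several of which could not change this.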

How the data were processed

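Total RNA of clones D351 and D16 was measured on 1 MG-U74B array each, with groups taken from the titles. Each probe set has 1 deposited intensity per array, on a linear scale and processed by the authors before deposit. The software, background correction and presence calls are not given in the sources used here. After trimming 2% at each end both columns averaged 40.0, so they were used as deposited, and a shift common to every transcript is lost from them. The number of arrays limits the precision.

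Of 12477 probe sets, 66 controls were left out. Names came from GEO's platform annotation (1 symbol for 10581, several for 178, unnamed here 1652), updated through gene identifiers to RefSeq GRCm38.p6 (10550 matched, 0 renamed). A gene was represented by its measured probe set with the highest mean signal. Ratios are log2 of D351 over D16 after the floor of 16.8 (pooled 50th percentile). Besides Bst2, Oasl1 and Parp12, the text names 24 pathway genes where on the array (9 were), up to 6 genes per list past 2-fold, the 3 nearest ratios, 2 measured neighbours on each side, and markers past 2-fold. Members of lists named for other reasons (close relatives, genes under the floor, genes within 2-fold that illustrate a role) were chosen after their values were seen. The genes and lists were chosen with earlier results of these data known. Promoters were searched for 2 motifs.

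Alternatives were a common median, quantile normalization, loess (span 0.3), a lower (25th percentile) and a higher floor (75th percentile), 16 added to each value, other probe set choices, size rules of 1.5-fold and 3-fold, and the floor on both arrays. The code was tested on simulated data. Tools were numpy 2.4.6, scipy 1.17.1, pandas 2.3.3, statsmodels 0.14.6 and matplotlib 3.10.9 under Python 3.11.15.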

Additional observations from a re-analysis of the deposited data

How the results depend on the processing

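No log2 ratio of the 3 genes changed sign, but a floor or an added constant cannot reverse an order. Some settings also left a ratio unchanged. Of the 24 values under other settings, 21 lay within 0.50 of the reported ones, the SD per probe set, which includes bounds. The exceptions were Oasl1 at -0.87 with a floor at the 75th percentile, a bound by construction, Oasl1 at -1.49 with 16 added to each value, which shrinks dim signals, and Parp12 at 0.67 with the median over its probe sets. The 8 interferon-list genes at least 2-fold higher in D351 became 14 at 1.5-fold, 4 at 3-fold and 10 with a floor at the 25th percentile. The 5 at least 2-fold lower became 13 at 1.5-fold, 2 at 3-fold, 12 with that lower floor, and 2 with a floor at the 75th percentile. Measured list genes numbered 70 as reported, 89 with the lower floor and 43 with the higher one. The share of measured probe sets apart, 17.2% at 2-fold, was 38.4% at 1.5-fold and 5.71% at 3-fold. At 2-fold it was 23.1% with the lower floor and 13.1% with the higher one. Scaling to a common median, quantile normalization and loess moved no count by over 1.5 times. Signal near background limits Oasl1 in D351 and the second probe sets of Bst2 and Parp12. With 1 array per clone, a difference between cultures of the same clone cannot be told apart from one between clones.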

Other observations

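The 4 Trim genes of the lists that were on the array lie near each other on chromosome 7, and their ratios went in opposite directions. In gene order they are Trim34a (121.9 in D351 and 21.7 in D16), Trim12a (32.2 in D351 and 2.8 in D16), Trim12c (120.3 in D351 and 32.8 in D16) and Trim30d (87.8 in D351 and 330.3 in D16). Between consecutive ones the RefSeq table lists 3, 3 and 6 other genes. The log2 ratios were 2.49, at least 0.94, 1.87 and -1.91. All 4 had a promoter that matched GAAANNGAA.

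Matches to that motif were read against the ratios of the lists. Of the 98 interferon-list genes on the array, 72 had a promoter in the table, and 28 of these held a match. Of their 93 promoters 32.3% held one, against 8.56% of all promoters. Among measured genes, the 22 with a match had a median log2 ratio of 0.24, with 4 at least 2-fold higher and 1 at least 2-fold lower in D351. The 27 without a match had a median of 0.12, with 4 and 2 past 2-fold in the same order of directions. Of all measured genes, 9.49% were at least 2-fold higher and 8.57% at least 2-fold lower in D351. Bst2 counts among the genes with a match, and Oasl1 and Parp12 among those without one. They were chosen with their ratios known, so neither group is free of that choice. The genes with a match also include the Trim genes above, which are close copies of one another. With a match, 15 genes were above 0 and 6 below, and without one 14 were above 0 and 13 below. Genes with a match thus ranged from Trim30d (-1.91) to Trim34a (2.49), and no difference between these groups was tested.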
